A study of Mus musculus with 14 samples.

Results

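The difference between APOE4 and APOE3 retinal microglia that sham and microbead retinas had in common was estimated from all 14 of the 14 libraries, 7 APOE4 against 7 APOE3. The model was additive: a term for treatment, and a single genotype effect that is the same in both treatments. Microglia are the resident macrophages of the retina, which survey neural tissue, clear debris and change their expression after injury. They are a source of apolipoprotein E, a lipid carrier whose human alleles include E3 and E4, the latter a known risk allele for Alzheimer's disease. The microbead injection is a glaucoma model in which beads obstruct the outflow of fluid and raise the pressure in the eye. The question is which genes differ by genotype whether or not that injury is present.

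The 4 groups were APOE3 sham (APOE E3/E3, sham injection, n = 4), APOE4 sham (APOE E4/E4, sham injection, n = 4), APOE3 microbead (APOE E3/E3, microbead injection, n = 3) and APOE4 microbead (APOE E4/E4, microbead injection, n = 3). Every retina came from a mouse of 12 weeks, and the cells were sorted as positive for CD11b and Fcrls and negative for Ly6c, 100 to 600 from each. How the alleles were introduced, the sex and whether retinas came from separate animals are not given in the labels, so p-values measure the spread between these samples. Depth was 453429 to 730134 estimated reads per library. A share of 38.5% to 65.3% fell on 12 genes that overlap satellite repeats, and 226374 to 447190 reads fell elsewhere. The sort could be checked against its markers: 50 of 52 homeostatic microglial genes had enough reads to be tested, and their summed level was 21400 to 48600 CPM (reads of a gene relative to the normalised total of its library) in every library, against 16.0 to 58.8 CPM for T and NK cell genes. Rod photoreceptor genes summed to more, 393 to 2890 CPM, with the most in APOE3 sham 3 (2890), APOE4 sham 1 (2260) and APOE3 sham 4 (1940). Neutrophil genes summed to 213 to 461 CPM, B cell genes to 115 to 359, and Muller glia and astrocyte genes to 194 to 336. In APOE3 sham 1, Csf3r alone had 319 of the 344 CPM of neutrophil genes, and Ighm 280 of the 333 of B cell genes. Border-associated macrophage genes summed to 335 to 453 CPM in APOE3 sham and 289 to 341 in APOE4 sham. After microbeads they summed to 305 to 463 and 226 to 365 CPM, and the genotypes overlapped in each treatment. Markers of monocytes and recruited macrophages, 23 genes, summed to 2010, 1150 and 488 CPM in the APOE3 microbead libraries and to 192 to 384 CPM in the other 11. Of the 23, 12 had more reads in those 3 libraries than in the other 11 together and 0 were without reads there; the chemokine receptor Ccr2 had 150 against 54 reads, Chil3 147 against 9, and Ly6c2, whose product the sort selects against, 4 against 13. Y-linked genes were present in every library, at 134 to 241 CPM. Apoe itself could not check the genotype labels, since it had 0 to 11 reads per library, was too low to be tested, and the transcript set holds the mouse Apoe only.

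Few genes were called between the genotypes over both treatments. Of 7609 genes tested, 4 were called at an adjusted p under 0.05 (edgeR quasi-likelihood test, Benjamini-Hochberg), which is 0.0526%, and all 4 were lower in APOE4: Gm5905, Gm14548, Iqgap1 and Plbd1. No gene was called higher. At an unadjusted p under 0.05 there were 452 genes (5.94%), 232 higher and 220 lower (3.05% and 2.89%). The 4 called genes fall into 2 kinds. Gm5905 and Gm14548, copies of other genes on chromosome 7, had almost no reads in APOE4 under either treatment. Iqgap1 and Plbd1 differed in the microbead libraries, while their sham libraries overlapped. In bulk samples such as these, fewer cells of a type and less RNA per cell cannot be told apart.

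Gm5905 (ENSMUSG00000110275, GRCm38 chromosome 7, 141177885 to 141178464, minus strand) is annotated as a processed pseudogene, a copy of a spliced messenger RNA that was pasted back into the genome. Its parent by sequence is Rps9, which encodes a protein of the small ribosomal subunit (chromosome 7, 3703993 to 3706897). Over 577 aligned bases the pseudogene and the coding part of Rps9 were identical at 566 (98.1%). Of the 550 stretches of 31 bases in Gm5905, 310 (56.4%) also occur in Rps9 and none occurs in another gene, so reads can be told apart only where the copies differ. Below are the 120 aligned bases with the most differences, 5 in all, shown because such bases are what assigns a read to one gene or the other. Capitals mark the bases that differ, and both are from GENCODE M21 (GRCm38), written 5′ to 3′ in the sense of the transcript, the pseudogene from chr7:141177953-141178072 on the minus strand.
Gm5905: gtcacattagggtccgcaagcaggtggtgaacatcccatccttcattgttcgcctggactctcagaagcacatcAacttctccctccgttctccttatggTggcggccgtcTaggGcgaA
Rps9: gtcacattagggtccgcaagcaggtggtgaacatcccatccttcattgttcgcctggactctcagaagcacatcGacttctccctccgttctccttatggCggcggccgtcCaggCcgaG

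Gm5905 had 9, 12, 7 and 9 reads in the APOE3 sham libraries and 15, 35 and 26 in APOE3 microbead. In APOE4 it had 1, 0, 0 and 0 reads in sham and 0 in all 3 microbead libraries. The groups did not overlap: every APOE3 library lay above every APOE4 library, at 10.8 to 46.2 CPM (median 21.1) against 0 to 1.79 CPM. Summed over libraries, 113 reads stood against 1, a ratio per library size of 101 (95% counting interval 17.8 to 4040). The fitted difference was -5.76 ± 0.62 (log2, SE, adjusted p = 1.91e-06). It was called in each treatment, with -4.56 ± 0.81 in sham (adjusted p = 0.0458) and -7.57 ± 1.01 in microbead (adjusted p = 0.000457), and it was the only gene called in sham. With 0 reads in APOE4 microbead, the size of the fitted microbead value is not a measured fold. There 76 reads stood against 0, at least 22.3-fold lower in APOE4 with a floor of 3 reads over the group. That sham call was narrow: the count within sham was 0 without any 1 of the 8 sham or the 3 APOE3 microbead libraries, and the 1 gene that DESeq2 called in sham was another one, higher in APOE4. The parent gene Rps9 was not called over both treatments (0.04 ± 0.16, adjusted p = 0.991). In sham it was at 179 to 228 CPM in APOE3 and 213 to 306 in APOE4, which overlapped, and after microbeads at 362 to 444 and 274 to 357, lower in APOE4 without overlap. Because reads are shared between the copies, the value of Gm5905 depends on how the estimation split them. Summed, the 2 genes were at 200 to 242 CPM in APOE3 sham and 213 to 306 in APOE4 sham, which overlapped. After microbeads the sum was 407 to 483 in APOE3 and 274 to 357 in APOE4, lower in APOE4 without overlap. Most reads of that sum were assigned to Rps9 (1263 in APOE3 and 1084 in APOE4), and it was not tested.

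Gm14548 (ENSMUSG00000074417, chromosome 7, 3884242 to 3898120) is a predicted protein-coding gene of the cluster of paired immunoglobulin-like receptors, surface receptors of myeloid cells that bind MHC class I. The family pairs activating members, the A type, with an inhibitory B type, Pirb. Of its 2098 stretches of 31 bases, 1760 (83.9%) also occur in other genes: 1300 in Pira2, 1220 in Gm15922, 1083 in Pirb and 851 in Lilra6. Along 1900 aligned coding bases it was identical to Pirb at 1849 (97.3%). The 120 bases with the most differences, 11 in all, are printed for the same reason as above, with capitals at the bases that differ.
Gm14548: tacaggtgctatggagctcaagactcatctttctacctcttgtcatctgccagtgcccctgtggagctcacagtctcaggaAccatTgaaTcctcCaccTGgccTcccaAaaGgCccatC
Pirb: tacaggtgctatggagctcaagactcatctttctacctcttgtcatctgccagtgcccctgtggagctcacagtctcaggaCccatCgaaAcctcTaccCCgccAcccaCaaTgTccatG

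Gm14548 had 4, 9, 9 and 2 reads in APOE3 sham and 11, 77 and 14 in APOE3 microbead. It had 0 reads in the 4 APOE4 sham libraries and 0, 0 and 2 in APOE4 microbead. Groups did not overlap within either treatment, although the lowest APOE3 sham library (2.40 CPM) lay below the highest APOE4 microbead library (3.46 CPM). Over all libraries 126 reads stood against 2, a ratio of 56.5 (95% counting interval 15.3 to 472), and in sham 24 stood against 0, at least 7.28-fold lower in APOE4 with a floor of 3 reads over the group. The fitted difference was -5.19 ± 0.70 (adjusted p = 0.000123). Without APOE3 microbead 2, which held 77 of the 126 reads, the adjusted p was 0.0674, and with limma-voom it was 0.442.

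**Figure D1:**
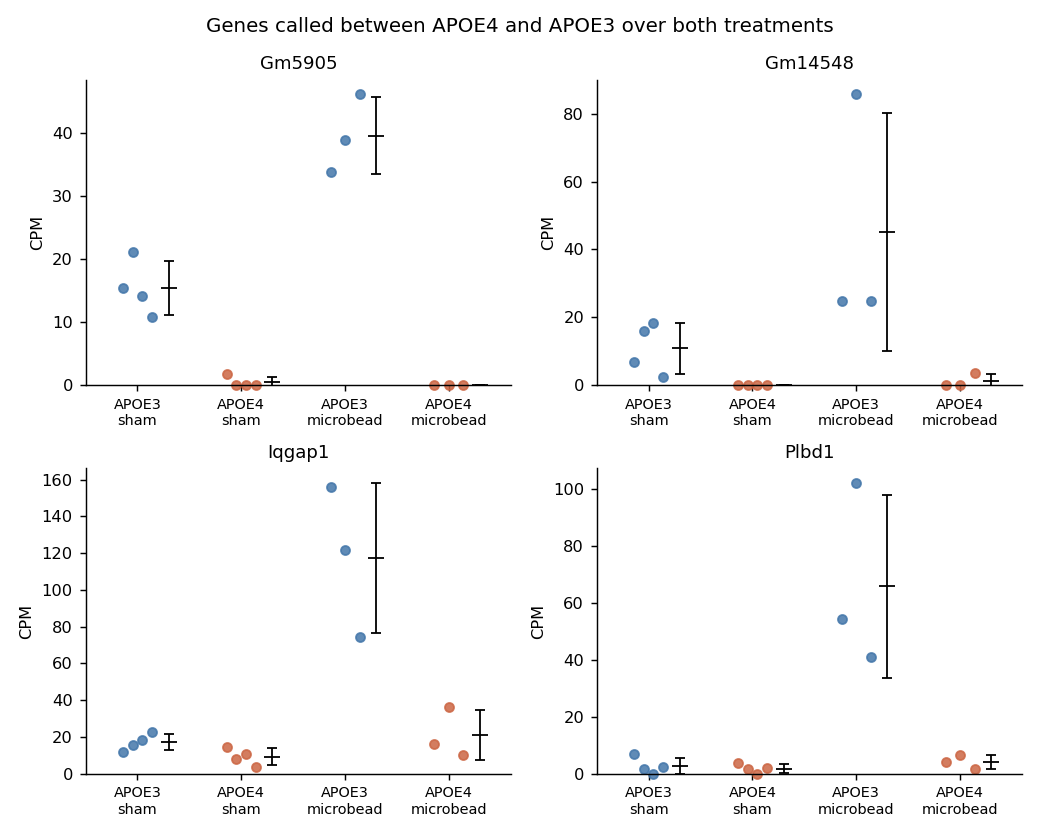
CPM (y axes, linear, from 0) of the 4 called genes in each library by group (x axes). Points are libraries, and the bar beside them is the mean ± SD (n = 4, 4, 3 and 3). Gm5905 and Gm14548 lie at or near 0 in APOE4 under both treatments, whereas Iqgap1 and Plbd1 stand apart in APOE3 microbead.

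The relatives of Gm14548 were taken as the 9 other genes that share at least 100 of its stretches of 31 bases; all of them lie on chromosome 7. Only Pirb among them had enough reads to be tested. Pirb (3711409 to 3720391), the inhibitory receptor, was at 94.5, 102, 87.3 and 108 CPM in the APOE3 sham libraries and at 93.3, 61.2, 23.1 and 50.9 in APOE4 sham. After microbeads it was at 158, 217 and 137 CPM in APOE3 and 117, 98.0 and 72.6 in APOE4. The microbead groups did not overlap, and 1 APOE4 sham library lay within the APOE3 sham range. Its difference of -0.81 ± 0.20 did not pass (adjusted p = 0.362) and was -0.78 ± 0.28 in sham and -0.84 ± 0.30 in microbead. The remaining 8 were summed with Gm14548, which lessens the effect of how reads are split among them. That sum was 29.2, 40.4, 48.8 and 36.0 CPM in APOE3 sham, and it was 1.79, 3.31, 3.56 and 5.66 in APOE4 sham. After microbeads it was 74.6, 231 and 67.5 CPM in APOE3 and 2.02, 6.64 and 12.1 in APOE4. Each of the 7 APOE3 libraries lay above each of the 7 APOE4 libraries. The sum was formed after its values were seen and is given without a test. With Pirb included, the 10 genes summed to 124 to 448 CPM in APOE3 and 26.7 to 119 CPM in APOE4, again without overlap.

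**Figure D2:**
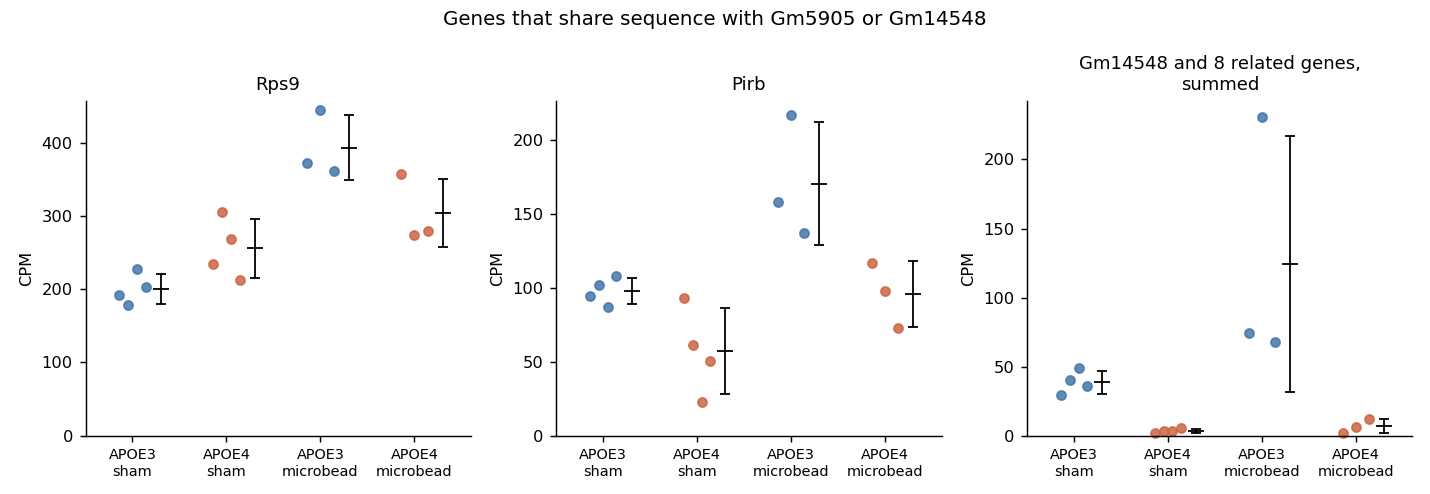
CPM (y axes, linear, from 0) of Rps9, of Pirb, and of Gm14548 summed with its 8 relatives other than Pirb, by library and group (x axes); bars are mean ± SD (n = 4, 4, 3 and 3). Rps9 overlaps between genotypes in sham and lies lower in APOE4 after microbeads, and the summed relatives do not overlap between genotypes in either treatment.

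Most single members had more reads in APOE3, from few reads in all. Gm15448 had 45 reads in APOE3 and 0 in APOE4, at least 13.5-fold lower in APOE4. The pseudogene Gm15925 had 42 and 0 reads, at least 12.6-fold lower in APOE4. Gm15922 had 70 reads against 1, a ratio of 62.8 (95% counting interval 10.9 to 2510), and the pseudogene Gm15931 had 35 against 2, a ratio of 15.7 (4.03 to 135). Lilra6 had 30 against 4 reads, while Pira2 had 14 against 7, a ratio of 1.79 whose interval (0.678 to 5.25) includes 1. Not every member was low in APOE4, and 1 relative, Gm15930, had 0 reads in APOE3 and 2 in APOE4. Rps9, the parent of Gm5905, ends 4512 bases before Pirb begins, so the parent gene of one copy and the cluster of the other are neighbours.

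All genes were then searched for the same pattern. Among 11423 genes with at least 30 reads, 9 (0.0788%) had reads in at least 6 libraries of one genotype and at most 3 reads, in at most 2 libraries, of the other. This search was added after the values were seen. All 9 had their reads in APOE3, and 8 of the 9 lie on chromosome 7, which holds 971 (8.50%) of the genes searched. Beside Gm5905 and 5 genes of the receptor cluster they were Muc2, a gel-forming mucin (141690340 to 141754693), with 30 against 2 reads, and the zinc finger gene Zfp936 (43114229 to 43192109), with 27 against 3. The 5 cluster genes share sequence and reads, so they do not count as separate genes. Gm5905 and Gm14548, 1 of the 5, had set the pattern that was searched for. The ninth was Aurka, a mitotic kinase on chromosome 2, with 35 against 2 reads. The labels give no strain background, and a difference between the APOE3 and APOE4 lines in the sequence of these genes cannot be told apart from a difference in their expression by these read counts. Apoe is on chromosome 7 as well (19696109 to 19699188), and linkage of these genes to the Apoe alleles was not tested. The receptor cluster ends 15.4 Mb before Apoe. Zfp936 and Muc2 lie beyond Apoe, at the positions given above, and Gm5905 lies 121 Mb beyond it. Iqgap1, a called gene that the search did not find, lies 61.0 Mb beyond it. Of 44 genes tested within 5 Mb of Apoe, 0 were called and 2 had an unadjusted p under 0.05 (4.55%, median difference -0.05), and within 10 Mb 0 of 121 were called. The share at an unadjusted p under 0.05 over all genes was 5.94%.

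Iqgap1 and Plbd1 were called over both treatments but differed mainly after microbeads. Iqgap1 (ENSMUSG00000030536, chromosome 7, 80711583 to 80825974) encodes a scaffold that links actin to signalling at the cell edge. It stood at 12.0, 15.8, 18.3 and 22.8 CPM in the APOE3 sham libraries and at 14.4, 8.28, 10.7 and 3.77 in APOE4 sham. After microbeads it was at 156, 122 and 74.6 CPM in APOE3 and 16.1, 36.5 and 10.4 in APOE4. The microbead libraries did not overlap, which held for 7.36% of all genes with APOE4 above and 7.19% with APOE4 below, and the sham libraries did overlap. The additive difference was -1.82 ± 0.33 (adjusted p = 0.0181), made up of -0.90 ± 0.45 in sham (adjusted p = 0.962) and -2.45 ± 0.39 in microbead (adjusted p = 0.00125). That these 2 values differ was not shown (interaction -1.55 ± 0.62, unadjusted p = 0.0187, adjusted p = 0.460).

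Plbd1 (ENSMUSG00000030214, chromosome 6, 136612070 to 136661928), which encodes a phospholipase B-like lysosomal protein, had 4, 1, 0 and 2 reads in APOE3 sham, 2, 1, 0 and 1 in APOE4 sham, 24, 92 and 23 in APOE3 microbead and 2, 4 and 1 in APOE4 microbead. In sham, 7 reads stood against 4, a ratio of 1.59 (95% counting interval 0.405 to 7.42). In microbead, 139 stood against 7, a ratio of 17.5 (8.26 to 44.3). The additive difference was -3.06 ± 0.57 (adjusted p = 0.0181) and the interaction -3.33 ± 1.27 (adjusted p = 0.418). The monocyte markers moved with both genes, being highest in the same APOE3 microbead libraries (2010, 1150 and 488 CPM). When the fit included that marker sum, neither gene was called (Iqgap1 -0.97, Plbd1 -1.92, adjusted p = 0.986 for each). Because the sum is highest in the APOE3 microbead libraries, any gene raised in that group can lose its difference in such a fit, whatever the reason. The same holds wherever the sum was in a fit, and the part of monocyte-derived cells was not tested. Without APOE3 microbead 1 and 2 together the values were -1.27 for Iqgap1 and -1.92 for Plbd1. Iqgap1 lost its call also without APOE3 microbead 1 or 2 or APOE4 microbead 1 or 3 (adjusted p 0.0652 to 0.110), and Plbd1 without any of APOE3 microbead 1 and 2 and the 3 APOE4 microbead libraries (0.0652 to 0.555).

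The next genes by p did not pass and are given as values. Cds2, which makes CDP-diacylglycerol for phosphatidylinositol synthesis, came nearest among higher genes. It was at 39.5, 38.6, 36.6 and 50.4 CPM in the APOE3 sham libraries and at 84.3, 118, 67.6 and 62.2 in APOE4 sham. After microbeads it was at 31.7, 35.6 and 51.5 in APOE3 and 60.5, 73.1 and 70.9 in APOE4. The groups did not overlap, with every APOE4 library above every APOE3 library under both treatments. Its difference was 0.91 ± 0.19 (adjusted p = 0.0765), with 0.99 ± 0.25 in sham and 0.78 ± 0.30 in microbead. With DESeq2 the adjusted p was 0.0359, and without APOE3 microbead 3 it was 0.0213. Of 30 alternatives that tested Cds2, 3 called it. The adjusted p rose to 0.905 among them all and to 0.304 with 1 library left out. Across all genes, 5 of 7609 (0.0657%) had 7 APOE4 libraries entirely above (3 genes, 0.0394%) or below (2 genes, 0.0263%) the 7 APOE3 libraries. Beside Cds2 and Gm5905 these were Spop, a ubiquitin ligase adaptor (-0.54 ± 0.18), the pseudogene Gm5641 (2.34 ± 0.63) and A230050P20Rik (0.88 ± 0.36), with adjusted p of 0.531 to 0.744 for these 3. Within sham alone the shares without overlap were 2.16% above and 1.37% below.

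The other higher genes nearest the threshold were Adamts16, a secreted protease (1.21 ± 0.33), Sall1, a transcription factor of microglial identity (0.63 ± 0.18), Smap2, a regulator of vesicle traffic (0.62 ± 0.17), Dido1 (0.69 ± 0.20) and Usp50 (0.96 ± 0.29), with adjusted p of 0.422 to 0.531. Their ranges overlapped between genotypes; Dido1, for one, was at 30.2 to 49.0 CPM in APOE3 and 44.8 to 86.4 in APOE4. On the lower side were Lrg1, a secreted glycoprotein (-4.74 ± 1.10, adjusted p = 0.218), the cell cycle inhibitor Cdkn1a (-1.18 ± 0.28, adjusted p = 0.252) and the actin crosslinker Flna (-0.92 ± 0.22, adjusted p = 0.266), beside Pirb. Lrg1 had 0, 0, 4 and 0 reads in APOE3 sham and 0, 0, 0 and 1 in APOE4 sham, then 18, 27 and 13 in APOE3 microbead and 0 in every APOE4 microbead library. Flna was at 65.0 to 103 CPM in APOE3 sham and from 44.7 to 65.8 in APOE4 sham, which overlapped, and at 79.9 to 167 and 28.3 to 59.8 after microbeads, which did not.

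**Figure D3:**
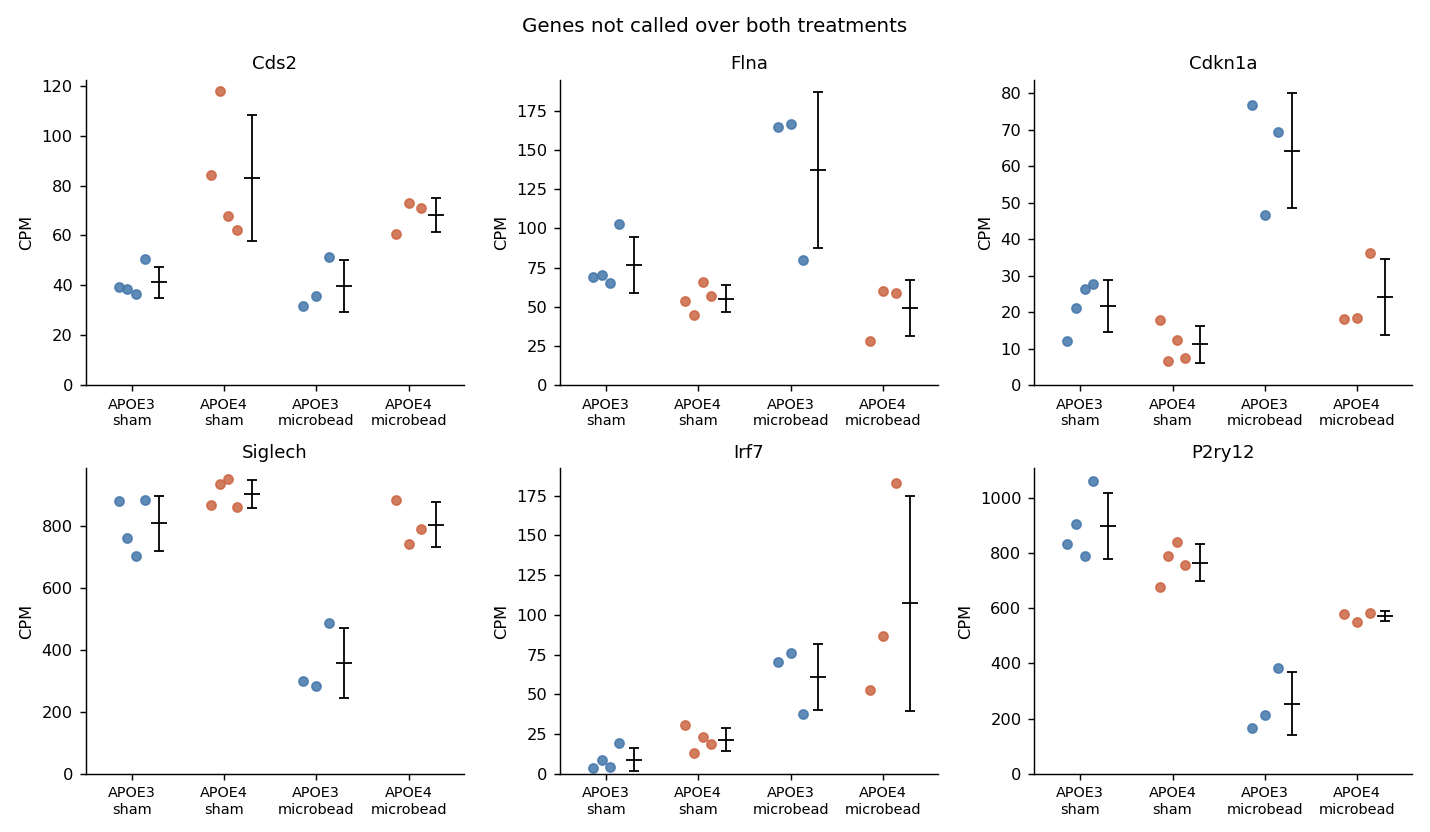
CPM (y axes, linear, from 0) by library and group (x axes) for 6 genes that were not called over both treatments; bars are mean ± SD (n = 4, 4, 3 and 3). Cds2 lies higher in APOE4 under both treatments, Irf7 overlaps in both, and Siglech and P2ry12 overlap in sham and lie higher in APOE4 after microbeads.

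How far the genotypes differed alike in the 2 treatments was examined with fits to the 8 sham and the 6 microbead libraries apart, which share no library. Among 5268 genes in both fits, 2634 (50%) had the same sign. The 4 genes called over both treatments were not among the 5268, so the shares given here do not cover them. Their sham reads were too few for the minimum count of 10 in that fit, at 7 to 12 per APOE3 library for Gm5905 and 2 to 9 for Gm14548. Of 298 genes with an unadjusted p under 0.05 in sham, 155 (52.0%) had the same sign in microbead, and of 451 such genes in microbead, 208 (46.1%) had the same sign in sham. The correlation of the log2 differences across genes was 0.00323, a description over genes that are not independent. A total of 30 genes had such a p in both fits, 13 with the same sign and 17 with opposite signs. The 13 were Cybb, Cdkn1a, Flna, Pirb, H2-Eb1 and AC132444.6 on the lower side, and Cds2, Usp50, Adar, Smap2, Dido1, Whrn and Gm5641 on the higher side. The 17 included 4 ribosomal protein genes (Rpl13, Rpl35, Rpl37 and Rps14), Axl (0.91 in sham and -0.65 in microbead), a receptor for dying cells, and Gpr34 (-0.56 and 1.25), a lysophosphatidylserine receptor. In the fit over 4 groups 1 gene was called in sham (0.0131%), 44 in microbead (0.578%, with 17 higher, 0.223%, and 27 lower, 0.355%) and 7 for the interaction (0.092%). At an unadjusted p under 0.05 these were 335 (4.4%), 746 (9.8%) and 623 (8.19%).

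**Figure D4:**
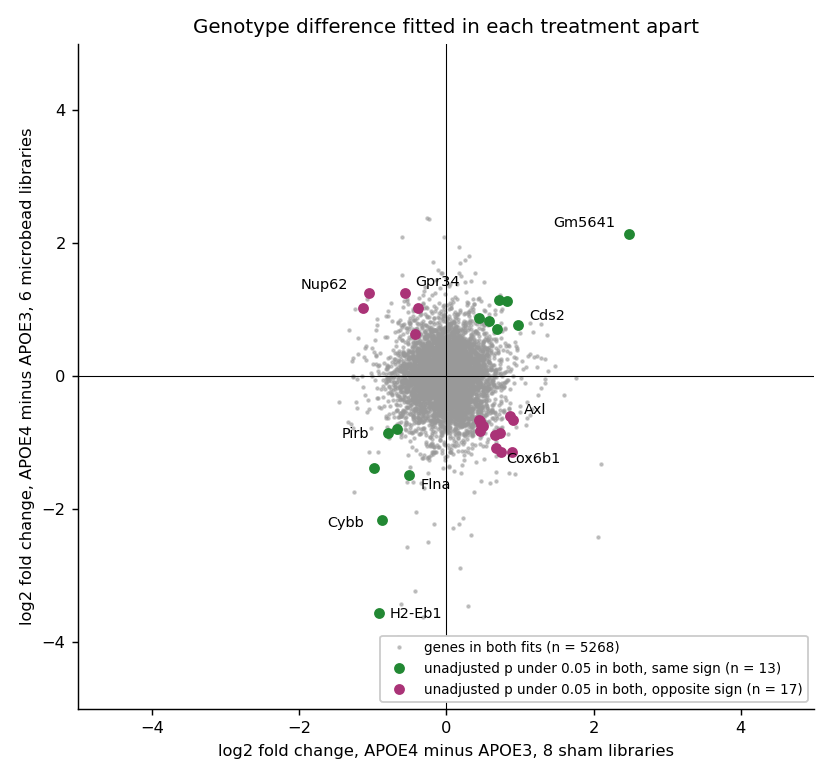
Each point is a gene, with its log2 difference between APOE4 and APOE3 in the 8 sham libraries (x axis) and in the 6 microbead libraries (y axis), fitted apart (5268 genes). The 4 genes called over both treatments had too few sham reads and are not plotted. Coloured points are the 30 genes with an unadjusted p under 0.05 in both fits, 13 in the quadrants of equal sign and 17 in those of opposite sign.

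The gene lists showed which programs the additive value averages over. Lists were read by counts and medians beside all genes tested, of which 3722 were above 0 and 3887 below (median -0.01). At an unadjusted p under 0.05, 3.05% of all genes were higher and 2.89% lower, and every list count at that p is to be read beside these shares. Type I interferon response genes, induced by interferon and active against viruses, were above 0 in 39 of 45, with a median of 0.33, of 0.46 in sham and of 0.26 in microbead. None was called, and 7 higher and 0 lower had an unadjusted p under 0.05. Lgals3bp, a secreted galectin ligand, had 0.73 ± 0.22 (adjusted p = 0.553), Slfn8 0.75 ± 0.25 (adjusted p = 0.648) and Irf7, the regulator of interferon genes, 0.93 ± 0.32 (adjusted p = 0.660). Irf7 was at 3.44, 8.78, 4.06 and 19.2 CPM in APOE3 sham and at 30.5, 13.2, 23.1 and 18.9 in APOE4 sham. After microbeads it was at 70.1, 75.7 and 37.3 in APOE3 and 52.5, 86.4 and 183 in APOE4. The libraries overlapped in both treatments, as did the summed level of the list, at 917 to 1360 CPM in APOE3 sham, 1140 to 2030 in APOE4 sham, 2200 to 3650 in APOE3 microbead and 2000 to 5040 in APOE4 microbead. With 1 library left out the list median ran from 0.20 (without APOE4 microbead 3) to 0.45. It was 0.63 with the monocyte marker sum in the fit and 0.59 without APOE3 microbead 1 and 2 together.

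Homeostatic microglial genes, which mark resting microglia, were above 0 in 43 of 50, but the additive median of 0.21 averaged -0.00 in sham and 0.51 in microbead. None was called, and 10 higher and 1 lower had an unadjusted p under 0.05 (3.05% and 2.89% of all genes). Siglech, a sialic acid receptor of microglia, was at 881, 762, 705 and 886 CPM in the APOE3 sham libraries and at 868, 937, 951 and 862 in APOE4 sham, which overlapped. After microbeads it was at 299, 284 and 488 in APOE3 and 884, 741 and 790 in APOE4, without overlap (additive 0.59 ± 0.18, adjusted p = 0.531). The purinergic receptor P2ry12 had 0.35 ± 0.22 (adjusted p = 0.875), from -0.23 ± 0.19 in sham and 1.17 ± 0.23 in microbead. Tmem119 (0.40 ± 0.18), the fractalkine receptor Cx3cr1 (0.22 ± 0.18) and the TGF-beta receptor Tgfbr1 (0.35 ± 0.16) did not pass either (adjusted p 0.805 to 0.895). The 1 lower gene was the sort marker Fcrls (-0.73 ± 0.20, adjusted p = 0.422), at 163 to 280 CPM in APOE3 sham and from 77.1 to 138 in APOE4 sham, without overlap, and overlapping after microbeads. The other sort marker, Itgam, had 0.05 ± 0.17 (adjusted p = 0.987). The homeostatic median was 0.01 once the monocyte marker sum was in the fit, and 0.06 without APOE3 microbead 1 and 2. Without APOE3 microbead 1 alone it was 0.14.

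Disease-associated microglial genes, which rise in microglia around damage, were below 0 in 30 of 40, with a median of -0.33 that combined 0.14 in sham and -0.66 in microbead. None was called, and 1 higher and 11 lower had an unadjusted p under 0.05 (3.05% and 2.89% of all genes). Osteopontin, Spp1, had -3.52 ± 0.82, Cybb, the catalytic subunit of the phagocyte oxidase, -1.55 ± 0.41, and the ferritin chain Fth1 -0.56 ± 0.17 (adjusted p 0.449 to 0.531). Spp1 was called without APOE4 microbead 2 (-6.50, adjusted p = 0.00046), and Cybb without APOE3 microbead 3 (adjusted p = 0.0213). Galectin-3, Lgals3, had -2.0 ± 0.87 (adjusted p = 0.806), but -3.63 and a call with limma-voom (adjusted p = 0.00313), with 0.37 ± 0.90 in sham and -3.88 ± 0.81 in microbead. Axl (0.20 ± 0.25) and Tyrobp (0.31 ± 0.17), the adaptor of TREM2, had opposite signs in sham (0.93 and 0.75) and microbead (-0.64 and -0.28), which missed the interaction threshold (adjusted p = 0.0610 and 0.0750). Of the other members, the beta-glucan receptor Clec7a had -0.41 ± 0.23, the integrin Itgax -0.36 ± 0.46 and the tetraspanin Cd63 -0.18 ± 0.17 (adjusted p 0.862 to 0.941). Trem2, which is not on this list, had 0.12 ± 0.15 (adjusted p = 0.940). The disease-associated median was -0.05 with the monocyte sum in the fit and -0.10 without APOE3 microbead 1 and 2. On log2(TPM + 1) it was -0.05, and without APOE4 microbead 3 or APOE3 microbead 2 it was -0.20 or -0.21.

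**Figure D5:**
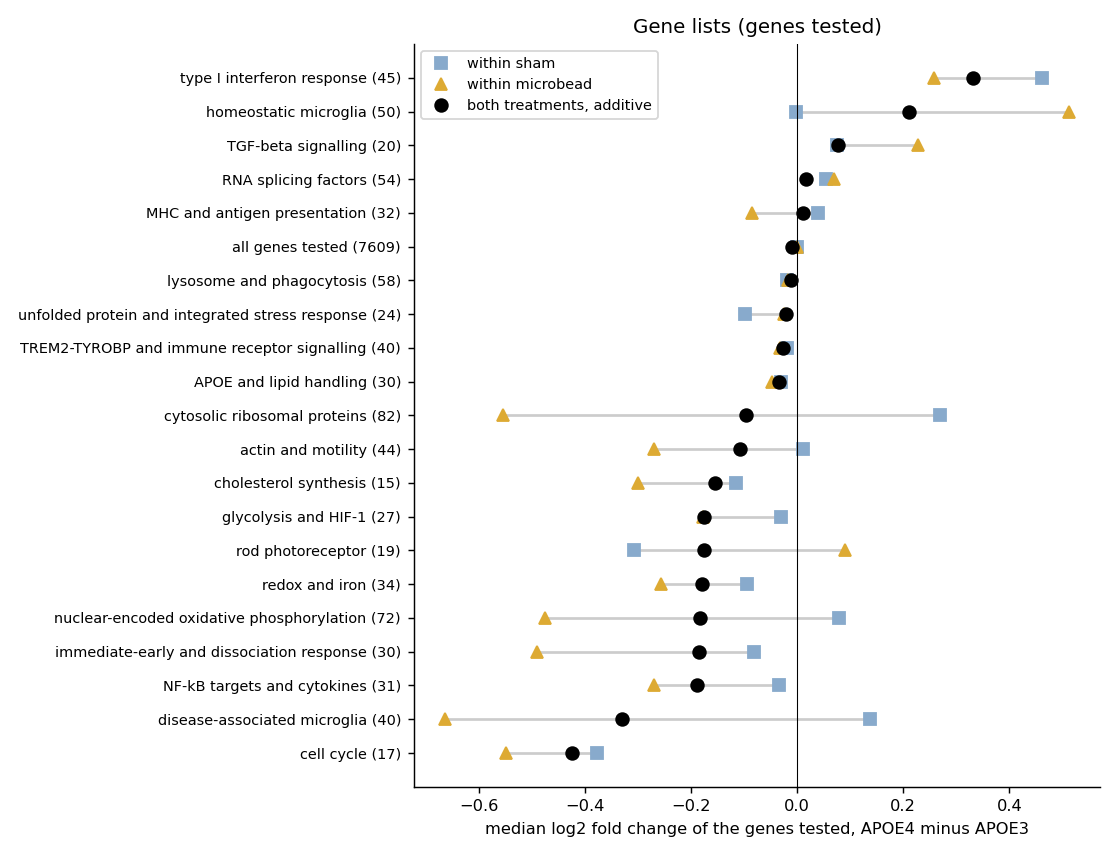
Median log2 difference between APOE4 and APOE3 (x axis) over the genes tested of 20 lists and of all genes (y axis, genes tested in brackets), over both treatments (circles), within sham (squares) and within microbead (triangles). Interferon genes lie above 0 in all 3, while ribosomal, disease-associated and oxidative phosphorylation genes lie on opposite sides of 0 in sham and microbead.

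The ribosomal and oxidative phosphorylation lists had medians of opposite sign in sham and microbead, and the glycolysis and cell cycle lists did not. Ribosomal protein genes had a median of -0.10 (82 genes, 0 called), of 0.27 in sham and -0.56 in microbead, and the sign of the additive median depended on the fit: it was 0.14 with the monocyte sum in the fit and 0.07 without APOE3 microbead 1 and 2. On log2(TPM + 1) it was near 0, and with 1 library left out it ran from -0.20 (without APOE3 sham 2) to -0.04 (without APOE4 microbead 3). Nuclear oxidative phosphorylation genes had -0.18 (72 genes), of 0.08 and -0.48, and 0.05 under each of those 2 changes. It was -0.08 without APOE3 microbead 2 and -0.28 without APOE3 sham 2. Glycolysis and HIF-1 genes had -0.18 (27 genes), of -0.03 and -0.18, with 8 lower at an unadjusted p under 0.05 (2.89% of all genes). That median was -0.08 without APOE3 microbead 3 and -0.35 without APOE4 sham 4. Among the 8 were the enzymes Tpi1 (-0.70 ± 0.19), Eno1 (-0.55 ± 0.17) and Pkm (-0.51 ± 0.20), none called (adjusted p 0.422 to 0.710). Cell cycle genes were below 0 in 16 of 17, with medians of -0.42 over both treatments, -0.38 in sham and -0.55 in microbead. None of them was called: Top2a, which untangles chromosomes, had -1.33 ± 0.54 (adjusted p = 0.754), Cenpa -1.11 ± 0.61 and H2afz -0.60 ± 0.34. The cell cycle median ran from -0.60 (without APOE3 sham 4) to -0.21 (on log2(TPM + 1)). The summed level of that list overlapped in sham, at 567 to 1060 CPM in APOE3 and 481 to 800 in APOE4. It overlapped after microbeads too, at 519 to 1210 and 477 to 811 CPM. The highest sums were in APOE3 sham 3 (1060) and APOE3 microbead 2 (1210).

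Immune lists held more lower members at an unadjusted p under 0.05 than the 2.89% of all genes, with 0 called: 4 of 32 for MHC and antigen presentation, 4 of 31 for NF-kB targets and cytokines, 3 of 11 for complement and 5 of 40 for TREM2-TYROBP and immune receptor signalling. These 4 lists had 0 higher members at that p. MHC and antigen presentation genes had a median of 0.01 (32 genes), whose sign changed among the alternatives. The class II genes H2-Eb1 (-2.16 ± 0.62), H2-Ab1 (-1.83 ± 0.58) and H2-Aa (-2.12 ± 0.67) were among 4 lower ones at an unadjusted p under 0.05 (adjusted p 0.637 to 0.660). H2-Eb1 was at 534, 1190 and 204 CPM in APOE3 microbead, the libraries with the monocyte markers, and at 30.3 to 108 in the other 11; the part of those cells in its level was not tested. NF-kB targets and cytokines were below 0 in 24 of 31 (median -0.19, and -0.12 without APOE4 microbead 3 or -0.30 without APOE3 sham 2), among them the chemokine Ccl2 (-1.50 ± 0.41, adjusted p = 0.562). Without APOE3 sham 1, Ccl2 was called (adjusted p = 0.0326). Complement component C4b had -1.05 ± 0.28 (adjusted p = 0.449). APOE and lipid handling genes had a median of -0.03 (30 genes, 0 called, 1 higher and 1 lower at an unadjusted p under 0.05), which ranged from -0.08 to 0.15 over the alternatives. The lipid droplet protein Plin2 had -0.93 ± 0.29 (adjusted p = 0.572), the transporter Abca9 0.52 ± 0.20 (adjusted p = 0.696) and the cholesterol exporter Abcg1 -0.56 ± 0.28 (adjusted p = 0.859). TGF-beta signalling genes had 4 higher and 0 lower of 20 at an unadjusted p under 0.05 (3.05% and 2.89% of all genes). Their median was 0.08, and it was -0.02 without APOE3 microbead 1. The integrin chain Itgb5, at 212 to 395 CPM in APOE3 and 318 to 502 in APOE4, led them (0.51 ± 0.16, adjusted p = 0.572), with 0.50 in sham and 0.52 in microbead. In the actin and motility list, 11 of 44 genes were above 0 and 33 below (median -0.11, 0.04 with the monocyte sum in the fit, -0.05 without APOE3 microbead 2 and -0.18 without APOE3 sham 2), with Iqgap1 the 1 member called. Wasf2, which activates actin branching, had 0.50 ± 0.15 (adjusted p = 0.531). Of 5 border-associated macrophage genes tested, 0 were above 0 and 0 were called (median -0.29, with -0.35 in sham and -0.20 in microbead). That median ranged from -0.40 to -0.16 over the alternatives. Among the 5, Mrc1 had -1.64 ± 0.47 (adjusted p = 0.531), with -1.58 ± 0.68 in sham and -1.71 ± 0.69 in microbead. Of 29 alternatives that tested Mrc1, 2 called it.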

How the data were processed

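Single-retina RNA-seq libraries of sorted microglia, 14 in all, were used. Per the submitters' processing notes, Salmon 1.4.0, R 4.0.3 and DESeq2 1.30.1 were used with mm10; their settings are not given in the sources used here. The values tested are the deposited estimated counts per transcript, summed per gene with GENCODE M21 (GRCm38) and rounded to whole numbers; 922 of 116945 transcripts, without a gene there, were left out. The authors' deposited series table holds TPM per gene, which served as an alternative and to check columns: in every library at least 99.2% of genes agreed to within 1% with the column of the same name.

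Genes were kept with filterByExpr (minimum count 10, minimum total 15), leaving 7609 of 28197 with a read. Genotype was tested with edgeR 4.0.16 (R 4.3.3), quasi-likelihood, robust, TMM, with treatment and genotype as terms, two-sided, Benjamini-Hochberg over all genes tested, called under 0.05; contrasts within each treatment and the interaction came from a model with 4 group means. The common biological coefficient of variation was 0.283. SE was derived from the F statistic, and a plus or minus beside a log2 value is that SE. CPM are TMM-normalised. Intervals for ratios of reads are exact at 95%; they and floors of 3 reads cover counting error only. The fit was tested on simulated data. There it called 40 of 92 genes with a log2 change of 1 (43.48%) and 97 of 98 with a change of 2, with 3 false calls. Smaller differences can therefore be missed. limma 3.58.1 and DESeq2 1.42.0 were alternatives.

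Named genes were all genes called; up to 6 per direction with the smallest p, leaving aside pseudogenes, sex-linked and predicted genes; up to 3 per list described; and fixed genes. Genes chosen after their values were seen are the relatives of Gm5905 and Gm14548, the genes found by the search on reads, and those that did not overlap. The comparison, the 33 lists and the rules were chosen with earlier results of these data known. Replicate numbers showed no pairing between the genotypes within a treatment, and pairing of sham with microbead retinas was not examined.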

Additional observations from a re-analysis of the deposited data

Results flagged for a closer look

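In the sham groups, which hold 4 libraries each, the library farthest from the rest was compared with the group's range, and 8 of the 136 groups examined were marked. Chance marks about 5% of groups whose values vary normally. A group with reads in only 1 library is always marked, as were Gm5905 and both Lrg1 groups, so that share does not apply to them. Gm5905 had 1.79 CPM in APOE4 sham 1 and 0 in the other 3. Lrg1 had 8.12 CPM in APOE3 sham 3 and 1.89 CPM in APOE4 sham 4, with 0 in the rest of each group. Flna stood at 103 CPM in APOE3 sham 4, against 65.0 to 70.2 in the others. Top2a stood at 60.9 CPM in APOE3 sham 3, against at most 12.0 in the others. Txn1 was lowest, at 4.97 CPM, in APOE4 sham 2, against 12.4 to 13.2. In APOE4 sham 3 the summed monocyte markers were lowest, at 192 CPM, and the summed homeostatic genes highest, at 46200 CPM.

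The genotype difference itself differed between sham and microbead in 7 genes by the interaction test (edgeR, adjusted p 0.0154 to 0.0350), all with an additive value that was not called. None of the 7 was called with the monocyte marker sum as a covariate, with length offsets, with the replicate number within treatment as a block, or without APOE4 sham 1, APOE4 sham 2 or APOE4 microbead 1. As microbead minus sham, it was 1.91 for Serpine2, 2.13 for Atp8a2, 2.59 for Hpgd and 1.81 for Gpr34, which were lower in APOE3 microbead than in APOE4 microbead. It was -3.64 for Fgr, -2.12 for Zfp280d and -2.71 for Capg. For Fgr the additive value of -0.24 combined 1.89 ± 0.50 in sham with -1.74 ± 0.41 in microbead.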

How the results depend on the processing

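Of 3197 values for 106 single genes under the alternatives, 3145 kept their direction and side of the threshold, 28 calls were lost, 24 gained and 0 reversed. Gm5905 kept its call in all 30 alternatives that tested it (adjusted p up to 0.0441), Gm14548 lost it in 4 of 28, Iqgap1 in 11 of 30 and Plbd1 in 13 of 30. With no filter, calls were gained for Lrg1, Cdkn1a, Flna, Pirb, Cds2, Fcrls, Cybb, Lgals3bp, Ccl2, C4b, Ms4a7 and Txn1, and with the averaged contrast for Flna, Siglech and Fth1.

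The additive count of 4 became 7 with limma-voom (3 shared), 2 with limma on log2(TPM + 1), library totals, length offsets, thinned counts or the monocyte marker covariate, 0 with a minimum count of 30 (187 at an unadjusted p under 0.05), 59 with no filter (4 shared), 8 with the contrast averaged in the interaction model (3 shared), and 1 with no treatment term or without both APOE3 microbead 1 and 2. It was 1 to 13 with 1 library left out: 2 without APOE3 microbead 1, 1 without APOE3 microbead 2, 13 without APOE3 microbead 3, and 2 without APOE4 microbead 1 or 3.

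The count of 1 within sham stayed 1 with DESeq2 but for another gene, and became 0 with limma-voom, library totals, length offsets, satellite genes left out, a minimum count of 30, thinning, either covariate or without both libraries, 12 with no filter, and 0 to 1 with 1 library left out. The 44 within microbead became 74 with DESeq2 (over 2150 genes), 8 on log2(TPM + 1), 14 with library totals, 24 with length offsets, 112 with no filter, 1 with the monocyte covariate, 2 without both libraries and 11 to 121 with 1 left out: 19, 16 and 121 without APOE3 microbead 1, 2 and 3, and 11 and 12 without APOE4 microbead 1 and 3. The 7 for the interaction became 58 with DESeq2 (over 1117 genes), 1 on log2(TPM + 1), 2 with library totals or thinning, 0 with length offsets or the monocyte covariate, 29 with no filter, 13 with the Y-linked covariate, 1 without both libraries and 0 to 30 with 1 left out: 30 without APOE3 microbead 3, 3 or 4 without APOE3 sham 1, APOE3 microbead 1 or 2 or APOE4 microbead 3, and 0 without APOE4 sham 1 or 2 or APOE4 microbead 1. The cause of these changes was not tested. With library totals the all-gene median became 0.16 in sham and -0.21 in the interaction, and on log2(TPM + 1) it was 0.22 in sham, -0.14 in microbead and -0.35 in the interaction; list medians were read without that shift removed. The same-sign shares stayed at 43.2% to 55.8% and 42.7% to 51.4%.

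With the replicate number as a block the counts were 4 (additive), 0 (sham), 33 (microbead) and 3 (interaction), and with the number within treatment 3, 0, 37 and 0. Within a treatment, same-numbered libraries of the 2 genotypes correlated at -0.05 to 0.03, so no pairing by number was seen between genotypes. Whether sham and microbead retinas of a genotype were paired was not examined. Depth limits genes with few reads: with a minimum count of 30, 2719 genes were left to test, and Gm5905 was not among them.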
